A study of Rattus norvegicus with 12 samples.

Results

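Counts of 7 rat class I major histocompatibility genes were examined in whole blood: RT1-S3, RT1-CE4, RT1-CE5, RT1-CE6, RT1-CE7, RT1-CE14 and RT1-CE16. RT1 is the name of the rat complex, and the 7 were taken by symbol from the 39 RT1 class I symbols among the 17337 genes counted. They were chosen with the difference between the strains in these libraries already known, so strain differences of the members are given as a description, without p-values. Whole blood RNA had been sequenced from adult male rats of the inbred strains F344 (Fischer) and WKY (Wistar Kyoto), in 12 libraries that fell into 4 groups of 3. Each strain had 1 group without stress (NS) and 1 group after chronic restraint stress (CRS). All rats, the NS rats included, were fear conditioned at 70 to 90 days of age, stayed 4 weeks in the home cage and were conditioned again after the stress period. CRS rats were held in restraint bags for 2 hours per day over 2 weeks before that second conditioning, and blood was taken 24 hours after it. Whether a library stands for 1 rat of its own is not stated in the labels, and the p-values measure the spread between libraries, which may be technical.

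Class I molecules carry peptides from inside the cell to the surface of nearly all nucleated cells, where cytotoxic T cells and natural killer cells read them. The heavy chain encoded by an RT1 gene pairs with beta-2 microglobulin (B2m) and is loaded with peptide in the endoplasmic reticulum with the help of the Tap1 and Tap2 transporter and tapasin (Tapbp). Rat class I genes are grouped into the classical RT1-A region and the nonclassical RT1-C/E/M region, whose gene number and sequence differ between strains, and many class I genes respond to interferon. RT1-S3, also called RT-BM1, is the rat counterpart of mouse H2-T23, a nonclassical molecule read by the CD94/NKG2 receptors of natural killer cells, and the CE genes belong to the C/E region.

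The RefSeq annotation of build GRCr8, which represents the Brown Norway strain, lists RT1-S3, RT1-CE4, RT1-CE5, RT1-CE7 and RT1-CE16 as protein coding, RT1-CE6 as a long noncoding RNA and RT1-CE14 as a transcript of unspecified class. In that build the spans of RT1-CE4 and RT1-CE5 overlap, RT1-CE6 and RT1-CE7 each overlap both of them, and RT1-CE7 is also listed as a synonym of RT1-CE5. The files used another build, rn6, and how reads shared between such copies or overlapping genes were counted is not stated. Counts of the CE genes are therefore uncertain as levels of single genes. How well reads of each strain align to the reference copies was not tested.

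Promoter windows (250 bases before to 50 bases after the annotated start) were found in RefSeq for 5 of the 7 members and are shown here because class I promoters are known for a shared enhancer that binds NF-kappaB and an interferon response element beside it. The stretches below run 5′ to 3′ on the gene's strand in GRCr8, and capitals mark the kappaB-like run, where found, and the interferon response element, which reads here as its reverse complement.
RT1-CE4, chr20:3509310-3509364, minus strand: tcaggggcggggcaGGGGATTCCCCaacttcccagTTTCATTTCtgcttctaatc
RT1-CE16, chr20:3265534-3265588, minus strand: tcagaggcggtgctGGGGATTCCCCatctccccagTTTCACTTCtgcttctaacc
RT1-CE5, chr20:3484217-3484271, minus strand: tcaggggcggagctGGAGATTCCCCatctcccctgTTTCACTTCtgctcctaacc
RT1-S3, chr20:2675381-2675435, plus strand: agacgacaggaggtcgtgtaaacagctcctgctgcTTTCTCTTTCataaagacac

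The 3 CE stretches share one layout, with the kappaB-like run upstream of the response element. The run GGGGATTCCCC was read from the window of RT1-CE4 itself, so the match there was fixed in advance. RT1-CE16 carried the same run, which was found on either strand in 0.0627% of 33469 promoter windows and in 8 of 32 class I windows. RT1-CE5 differed from the run of RT1-CE4 by the substitution G3A, counted from 1 at the run's 5′ end. The shorter response element GAANNGAAA was found in RT1-CE4, RT1-CE5 and RT1-CE16, in 8.54% of all windows and in 13 of 32 class I windows. The longer form GAAANNGAAA, with 1 more A, was found in RT1-S3, in 3.92% of windows and in 3 of 32 class I windows. CCAAT was present in the windows of RT1-S3, RT1-CE4, RT1-CE5 and RT1-CE16, in 37.5% of all windows and in 21 of 32 class I windows. RT1-CE6 held none of the 4 patterns. Over the whole windows RT1-CE4 and RT1-CE5 were 71.6% identical in a global alignment, RT1-CE5 and RT1-CE16 68.8%, and RT1-CE4 and RT1-CE16 55.2%. RT1-S3 was 43.7% to 47.4% identical with the 4 others, and RT1-CE6 was 57.2% identical with RT1-CE4, 49.4% with RT1-CE16 and 45.3% with RT1-CE5. These are matches of letters in a reference strain and describe neither F344 nor WKY sequence.

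Depth limited all that follows. Genes received 1691956 to 3846263 counts per library, of which 90796 to 419789 lay outside the 3 most abundant features, and the members together received 35 to 475. Among the F344 libraries, unstressed replicates 2 and 3 had the fewest counts outside those features (195564 and 90796) and 48 and 35 member counts. Unstressed WKY replicate 3, at 170507, lay between them. A single count was worth 0.201 to 1.13 CPM, the unit used below, in which counts are scaled to a common total by TMM. Of the 7 members, 5 passed the filter on low counts that kept 2781 genes. RT1-CE6 had 21 counts in all 12 libraries together (8 in F344 and 13 in WKY, at most 7 in a library), and RT1-CE7 had 1 count, in an F344 library, so neither could be compared.

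RT1-S3 and RT1-CE5 had higher values in every WKY library than in any F344 library, and RT1-CE4 and RT1-CE16 lay on the opposite side after CRS. RT1-S3 stood at 12.3, 14.6 and 11.3 CPM in the unstressed F344 libraries and at 45.1, 43.9 and 37.7 CPM in the unstressed WKY libraries. After CRS it stood at 14.04, 15.3 and 15.1 CPM in F344 and at 41.6, 53.9 and 40.5 CPM in WKY. The strains did not overlap under either treatment, and values within a strain lay close together. The log2 difference in RT1-S3, WKY minus F344, was 1.72 (SE 0.303) without CRS and 1.61 (SE 0.280) after it.

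RT1-CE5, a C/E region heavy chain gene, showed the same order of strains with more spread. Its level was 9.32, 4.85 and 10.2 CPM in unstressed F344 and 40.7, 19.2 and 25.7 CPM in unstressed WKY. After CRS it was 8.22, 7.80 and 10.3 CPM in F344 and 21.04, 20.7 and 31.99 CPM in WKY. The lowest WKY library was above the highest F344 library, while the 3 unstressed WKY libraries ranged from 19.2 to 40.7 CPM. The log2 difference in RT1-CE5, WKY minus F344, was 1.83 (SE 0.360) without CRS and 1.48 (SE 0.327) after it.

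RT1-CE4 and RT1-CE16, both C/E region genes, had lower means in WKY under both treatments. RT1-CE4 stood at 6.58, 3.64 and 12.5 CPM in unstressed F344 and at 4.57, 2.28 and 3.84 CPM in unstressed WKY. After CRS it stood at 6.82, 4.75 and 5.65 CPM in F344 and at 1.52, 0.431 and 3.59 CPM in WKY. The unstressed groups overlapped for RT1-CE4 and the groups after CRS did not. The log2 difference, WKY minus F344, was -0.92 (SE 0.469) without CRS and -1.58 (SE 0.481) after it.

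RT1-CE16 measured 6.85, 5.46 and 4.54 CPM in unstressed F344 and 4.12, 2.60 and 4.23 CPM in unstressed WKY. After CRS it measured 7.22, 6.44 and 3.83 CPM in F344 and 2.79, 0.863 and 2.61 CPM in WKY. Within each treatment every WKY value of RT1-CE16 lay below every F344 value. The log2 difference, WKY minus F344, was -0.69 (SE 0.434) without CRS and -1.38 (SE 0.431) after it.

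RT1-CE14 was the member whose order of strains differed between treatments. It stood at 4.66, 0.607 and 0 CPM in unstressed F344, where the 0 in replicate 3 allows a level of up to 3.40 CPM (3 counts, counting error only). It stood at 12.6, 4.56 and 11.9 CPM in unstressed WKY. After CRS the values were 3.21, 3.39 and 4.64 CPM in F344 and 4.31, 2.16 and 3.26 CPM in WKY. The groups overlapped under both treatments, and the log2 difference, WKY minus F344, was 1.88 (SE 0.510) without CRS and -0.17 (SE 0.485) after it. Without unstressed F344 replicate 1, the RT1-CE14 difference without CRS became 4.52, a value that then rests on the remaining 2 libraries with 0 or 1 counts.

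**Figure D1:**
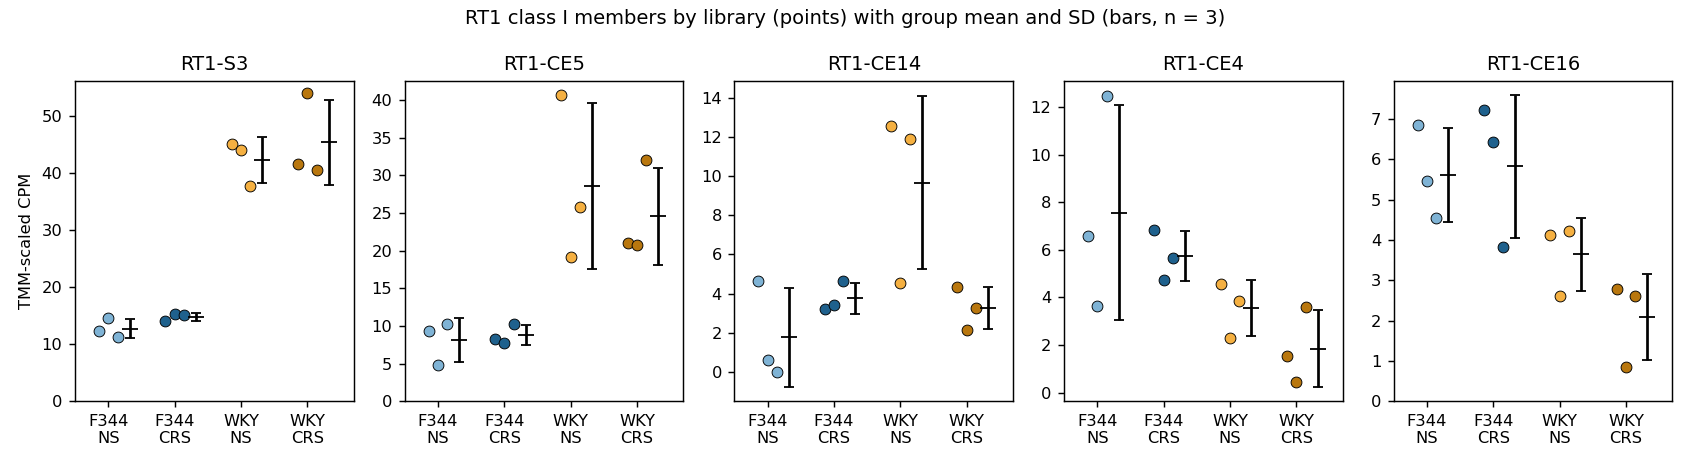
TMM-scaled CPM of the 5 tested RT1 members in each of the 12 libraries (points) by group, with group means. RT1-S3 and RT1-CE5 are higher in all 6 WKY libraries than in all 6 F344 libraries, and RT1-CE14 has its 2 highest values, 12.6 and 11.9 CPM, in unstressed WKY.

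By edgeR's quasi-likelihood test over all 2781 genes (Benjamini-Hochberg, threshold 0.05), RT1-S3 and RT1-CE5 (2 of the 5 tested members) passed in the strain contrast without CRS, where 0.683% of all tested genes did and 0.324% in that direction. The same 2 passed after CRS, where 1.4% of genes did (0.683% in that direction and 0.719% in the other). Since the members were chosen on this difference, they are no test of the members and nothing is read from them. The strain groups did not overlap without CRS for 2 members in the direction of higher WKY values (7.7% of tested genes) and for RT1-CE16 in the lower direction (6.33%). After CRS they did not overlap for the same 2 in the higher direction (9.56%) and for RT1-CE4 and RT1-CE16 in the lower direction (10% of tested genes). Over all 12 libraries, 2 members were higher throughout in WKY (1.4% of tested genes) and 0 were lower throughout (0.935%). Without both shallow unstressed F344 libraries the log2 difference without CRS was 1.82 for RT1-S3 and 1.67 for RT1-CE5, and 0 members then passed, in a fit that assumes the lone remaining library varies like the others. Without stressed WKY replicate 3 the difference after CRS was 1.25 for RT1-CE5, which then missed the threshold, and -2.36 for RT1-CE4, which then passed it. RT1-CE5 also missed it without CRS when unstressed F344 replicate 2 (log2 1.61) or unstressed WKY replicate 1 (1.48) was left out, and after CRS when stressed F344 replicate 1 (1.42) or 2 (1.41) was left out.

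Ratios of counts within 1 library do not depend on how the libraries were scaled, and they describe reads, not molecules per gene length. RT1-CE5 received 0.818 to 1.82 counts per RT1-CE4 count in the 6 F344 libraries (median 1.38) and 6.70 to 48.0 in the 6 WKY libraries (median 8.90). RT1-S3 received 0.909 to 4 counts per RT1-CE4 count in F344 (median 2.37) and 9.80 to 125 in WKY (median 15.3). Both ratios separated the strains completely. Ratios between members repeat the strain difference on which the members were chosen and are no added support for it. The highest WKY values, 48.0 and 125, came from stressed replicate 2, in which RT1-CE4 had 1 count.

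**Figure D2:**
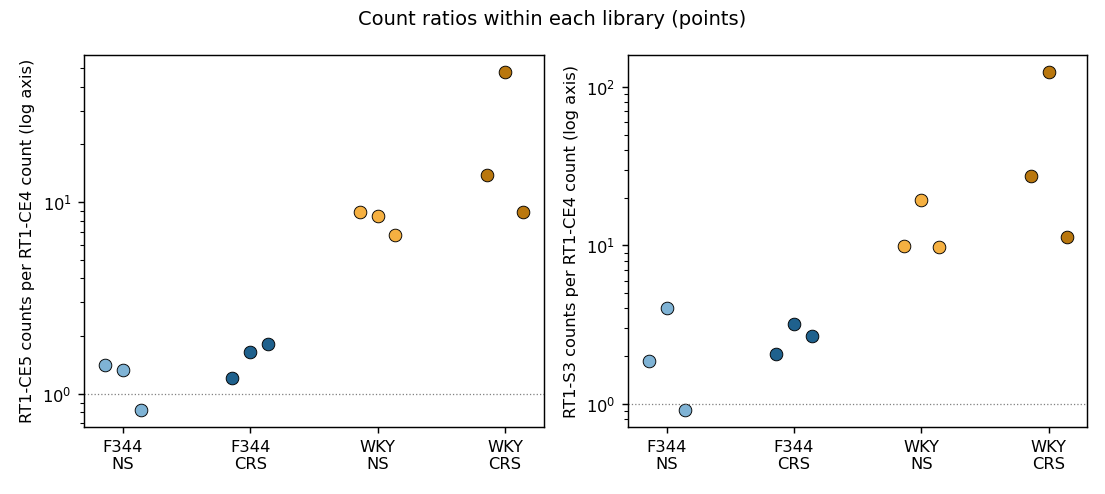
Counts of RT1-CE5 (left) and RT1-S3 (right) per RT1-CE4 count within each of the 12 libraries (points), on log axes, by group. All 6 WKY libraries lie above all 6 F344 libraries in both panels, with WKY values from 6.70 and 9.80 upward.

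RT1-CE5 also separated the strains when set against RT1-CE16, at 0.889 to 2.68 counts per RT1-CE16 count in F344 and 6.09 to 24.0 in WKY. Ratios between members that lay on the same side overlapped between the strains. RT1-S3 had 1.11 to 3.00 counts per RT1-CE5 count in F344 and 1.11 to 2.60 in WKY, and RT1-CE4 had 0.667 to 2.75 counts per RT1-CE16 count in F344 and 0.5 to 1.38 in WKY. Of all member counts in a library, RT1-CE4 took 12.5% to 31.4% in F344 and 0.552% to 4.59% in WKY. RT1-CE16 took 9.69% to 18.8% in F344 and 1.11% to 5.05% in WKY. RT1-S3 took 28.6% to 50% in F344 and 41.5% to 69.1% in WKY. The summed level of the 7 members was 29.1 to 40.8 CPM in F344 and 71.2 to 109 CPM in WKY.

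B2m, the light chain shared by all class I molecules, differed between the strains by less than its error, with 60.2 to 98.4 CPM in F344 and 41.5 to 103 CPM in WKY. Its log2 difference, WKY minus F344, was -0.01 (SE 0.304, edgeR adjusted p = 0.992) without CRS and -0.14 (SE 0.299, edgeR adjusted p = 0.910) after it. RT1-S3 received 0.145 to 0.199 counts per B2m count in F344 and 0.437 to 0.907 in WKY. These ratios did not overlap between the strains. They draw on the same RT1-S3 counts as above and are no added support for the strain difference.

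The other class I genes were compared to see where the members stood apart. Of the 32 other RT1 class I symbols, 8 passed the filter and 7 of the 39 symbols had no count in any library. Without CRS all 8 had positive log2 differences, WKY minus F344, from 0.42 to 1.64 (median 1.38, against -0.01 over all tested genes). Like the members, they are described without a test. They included the classical RT1-A1 (1.44) and RT1-A2 (1.32), and RT1-N3 (1.64) and RT1-CE15 (1.61). After CRS, 7 of the 8 were positive with a median of 0.70 (0.00 over all tested genes), and RT1-A3 stood at -0.85. RT1-CE4 and RT1-CE16 were thus the only tested class I genes with negative differences under both treatments, chosen here after their values were seen. The summed level of all 39 class I symbols was 76.4 to 96.5 CPM in F344 and 119 to 236 CPM in WKY, and the members made up 38.1% to 59.8% of class I counts. The 4 tested class II genes, whose products are read by helper T cells, had a median log2 strain difference of -0.07 without CRS and -1.15 after it.

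**Figure D3:**
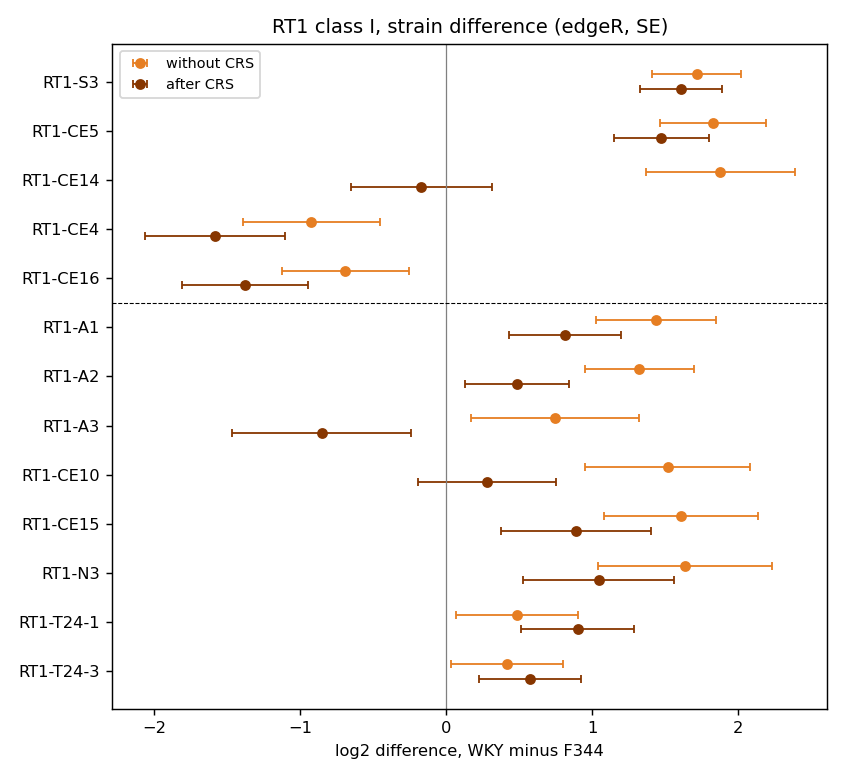
log2 differences, WKY minus F344, of the 13 tested RT1 class I genes without CRS and after CRS, with standard errors from the edgeR fit. RT1-S3 and RT1-CE5 lie between 1.48 and 1.83 under both treatments, and RT1-CE4 and RT1-CE16 lie below 0 under both.

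Restraint was tested separately from the strain difference, although it uses the same unstressed libraries. In F344, 0 of the 5 tested members passed edgeR's threshold, where 0% of all genes did, and 0 had an unadjusted p under 0.05. In WKY, 0 members passed (0% of all genes), and RT1-CE14 alone had an unadjusted p under 0.05, as did 5.79% of all tested genes. For the mean of both strains 0 members passed (0.036% of all genes), with 0 at an unadjusted p under 0.05. DESeq2 and limma-voom also called 0 members in each of these. The median log2 change of the 5 members, CRS minus NS, was 0.13 in F344 with 3 positive, and -0.72 in WKY with 1 positive, against 0.01 and 0.02 over all tested genes. Negative values in WKY were not particular to the members. Of the 8 other tested class I genes 7 were negative there (median -0.55), with RT1-A3 lowest at -1.74. All 4 tested class II genes were negative in WKY (median -1.05). In F344 the medians of these 2 sets were -0.14 and 0.07. None of these genes passed in either strain.

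RT1-S3 had a log2 restraint value of 0.20 in F344 (SE 0.310, edgeR adjusted p = 0.999) and of 0.10 in WKY (SE 0.268, edgeR adjusted p = 0.975), and its treatment groups overlapped in both strains. RT1-CE5 had log2 values of 0.13 in F344 and -0.23 in WKY. RT1-CE4 had -0.25 in F344 and -0.91 in WKY (SE 0.519, edgeR adjusted p = 0.958), and RT1-CE16 had -0.03 and -0.72. None of these passed the test, which with 3 libraries per group does not show that the levels were equal.

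RT1-CE14 gave the widest restraint difference of the members. Its 3 stressed WKY libraries, at 4.31, 2.16 and 3.26 CPM, all lay below the 3 unstressed ones, at 12.6, 4.56 and 11.9 CPM. Groups separated in this direction for 5.11% of tested genes in WKY (4.89% in the other), and no member separated in F344 (6.22% of genes higher and 5.68% lower). The log2 change was -1.53 in WKY (SE 0.452, edgeR adjusted p = 0.616) and 0.52 in F344 (SE 0.549, edgeR adjusted p = 0.996). The difference between the strains in the response was -2.05 (SE 0.709, edgeR adjusted p = 0.993), so it did not pass over all genes. Without unstressed F344 replicate 1 the F344 change became 3.16 and the difference in response -4.68. For that interaction 0 members passed in edgeR (0% of genes), 1 had an unadjusted p under 0.05 (3.81% of genes), and 0 were called by DESeq2 or limma-voom. The summed level of the 4 red cell markers in the files, nearly all of it Hbb, also separated in WKY. It stood at 20367 to 25949 CPM without CRS and at 35105 to 37760 CPM after it. In F344 the sums overlapped, at 19974 to 34286 and 24571 to 40161 CPM. Hbb did not pass for restraint in WKY (log2 0.63, edgeR adjusted p = 0.958). Alas2 separated there as well, while Slc4a1 and Ahsp overlapped. The part of the red cell sum in the RT1-CE14 values was not tested.

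**Figure D4:**
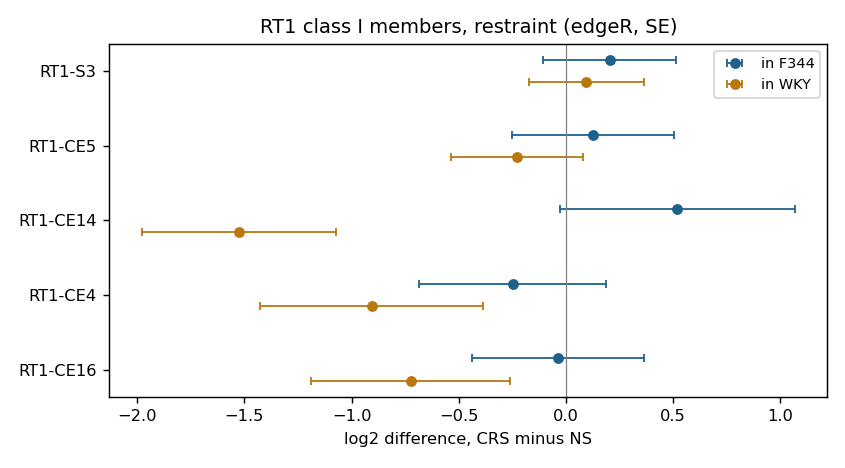
log2 changes, CRS minus NS, of the 5 tested members in F344 and in WKY, with standard errors from the edgeR fit. The bars of all 5 members cross 0 in F344, and RT1-CE14 has the widest gap between strains, 0.52 in F344 and -1.53 in WKY.

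Genes that act with class I molecules were followed through 5 lists (light chain and peptide loading, peptide generation, class I regulators, receptors, and class I-like genes outside RT1). Of their 50 symbols, 47 were in the files and 26 were tested, and the only one to pass over all genes was Irf7. It passed between the strains without CRS, where 0.683% of all tested genes did, and after CRS, where 1.4% did. The lists were chosen with earlier results of these data known, so the Irf7 p-values are no independent test. Irf7, a transcription factor of the type I interferon response, stood at 49.9 to 59.5 CPM in unstressed F344 and 217 to 271 CPM in unstressed WKY. After CRS it stood at 77.2 to 100 CPM in F344 and 250 to 359 CPM in WKY. The log2 difference, WKY minus F344, was 2.19 without CRS (SE 0.297, edgeR adjusted p = 8.71e-06) and 1.80 after it (SE 0.286, edgeR adjusted p = 0.000194). Without CRS 17 of the 26 were positive (median 0.23), and after CRS 16 of 26 (median 0.08).

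The peptide loading genes did not pass. Tapbp, which bridges class I and the transporter, had log2 differences, WKY minus F344, of 1.21 without CRS (SE 0.390, edgeR adjusted p = 0.177) and 0.61 after it (edgeR adjusted p = 0.532). It passed without CRS when unstressed F344 replicate 1 was left out (log2 2.14, edgeR adjusted p = 0.0264). Tap1 had 0.97 without CRS and 0.06 after it, and Tap2 had 0.08 and -1.14. Psmb9, an immunoproteasome subunit, had -0.79 and 0.67, and Irf1, an activator of class I genes, -0.05 and 0.11. Cd8a, the co-receptor of cytotoxic T cells, had -0.89 and -0.20. Psmb8, another immunoproteasome subunit, was below the filter, and Nlrc5, a class I transactivator, was not analysed here. Under restraint 0 of the 26 passed in either strain by edgeR, DESeq2 or limma-voom, with 2 in F344 and 1 in WKY at an unadjusted p under 0.05 in edgeR, against 4.71% and 5.79% of all tested genes.

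**Figure D5:**
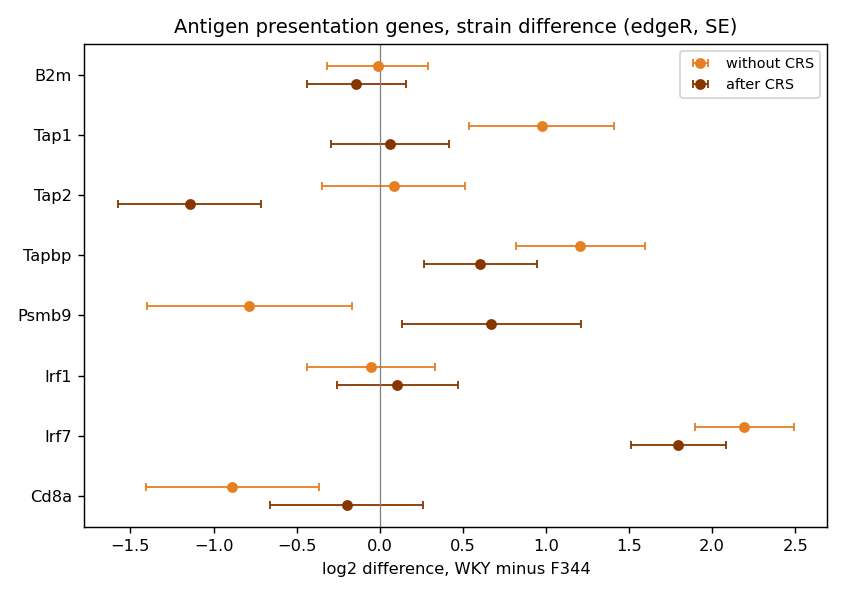
log2 differences, WKY minus F344, of 8 antigen presentation genes without CRS and after CRS, with standard errors from the edgeR fit. Irf7 lies at 2.19 and 1.80, and B2m lies within its error of 0 under both treatments.

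RT1-S3 tracked Irf7 across the 12 libraries. The Pearson correlation of their log2 CPM was 0.985 over all 12 libraries and 0.840 after subtracting group means, as a description of libraries that share depth and strain. The other tested members did not all do so. With Irf7, RT1-CE5 had 0.859 over all libraries and -0.303 after subtracting group means, and RT1-CE14 had 0.549 and 0.024. RT1-CE4 had -0.772 and -0.757 with Irf7, RT1-CE16 had -0.775 and -0.657, and B2m had 0.027 and 0.691. RT1-S3 and RT1-CE5 had a correlation of 0.868 over all libraries and -0.424 after subtracting group means, so their likeness lay between the groups. RT1-CE4 and RT1-CE16 had 0.819 and 0.519, and RT1-S3 and RT1-CE4 had -0.768 and -0.824. Among 1077 genes outside RT1, the 5 most like the summed level of the tested members over the 12 libraries were Mx2 (r = 0.923), Irf7 (0.915), Supt5h (0.902), Mx1 (0.890) and Lyz2 (0.868). Mx1 and Mx2 encode interferon-induced antiviral GTPases. The summed level carries the strain difference on which the members were chosen, so this ranking favours genes that differ between the strains. After subtracting group means the 5 most alike genes were Nlrp3 (0.923), Srebf2 (0.829), Plxnb2 (0.806), Zfand3 (0.790) and F13a1 (0.766). None of the first 5 was among them.

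Markers of some blood cell types differed between the strains in their summed levels. The 5 monocyte markers, all with counts, summed to 52.2 to 65.2 CPM in unstressed F344 and 109 to 127 CPM in unstressed WKY, and to 73.4 to 79.8 and 113 to 159 CPM after CRS. The 6 T cell markers, all with counts, summed to 22.4 to 35.9 CPM in unstressed F344 and 16.0 to 20.4 CPM in unstressed WKY, and to 23.1 to 27.5 and 15.1 to 22.3 CPM after CRS. The monocyte sums separated the strains with higher values in WKY. The T cell sums separated them narrowly with lower values in WKY (lowest F344 22.4, highest WKY 22.3 CPM). No single T cell marker separated the strains over all 12 libraries. Cd247 and Cd3e did so only without CRS, and Cd3g and Lck only after it. Of the 4 tested T cell markers, 0 passed edgeR's threshold between the strains under either treatment. Most of each monocyte sum was Lyz2, at 45.4 to 67.1 CPM in F344 and 90.8 to 139 CPM in WKY. Cybb, a phagocyte oxidase subunit, also separated the strains, at 1.01 to 2.43 and 4.35 to 6.59 CPM. Over all 12 libraries 1.4% of tested genes separated in that direction. Cybb passed edgeR's threshold after CRS (log2 1.88, adjusted p = 0.0115), but not when stressed F344 replicate 1 or 3 or stressed WKY replicate 1 was left out, nor without a filter on low counts. Csf1r separated the strains without CRS (log2 0.97) and overlapped after it (0.07), and Cd14 and Cd68 overlapped near the level of a few counts. The 5 neutrophil markers summed to 21.6 to 48.1 CPM over the F344 libraries and 34.5 to 57.6 CPM over the WKY libraries. Sums for B cells (9.71 to 18.1 against 9.47 to 17.6 CPM), natural killer cells (1.70 to 9.10 against 4.23 to 10.9 CPM) and platelets (12.3 to 25.1 against 10.4 to 43.4 CPM, with Gp1bb at 0) overlapped between the strains. The part of these cells in the class I values was not tested, and fewer cells of a type and less RNA per cell cannot be told apart in whole blood. Reads recorded as ambiguous took 80.4% to 83.3% of all counts in F344 libraries and 78.3% to 83.6% in WKY libraries, and their part in the RT1 differences was not tested.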

How the data were processed

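Whole blood RNA from 12 rat libraries was analysed from raw read counts per gene, deposited by the authors as whole numbers without normalization. Build rn6 and the tools TopHat2 2.1.0, cutadapt 1.14 and Cufflinks 2.2.1 are listed, without roles, in the submitters' processing notes. How reads were counted, on which annotation and strand, is not given in the sources used here. In each library 5 entries naming no gene took 80.9% to 86.6% of counts and were left out. Groups came from the labels. Counts were tested with edgeR 4.0.16 (R 4.3.3; quasi-likelihood test, TMM scaling, filterByExpr with a minimum count of 10) in 1 fit of 4 group means over 2781 genes, with Benjamini-Hochberg adjustment. DESeq2 1.42.0 and limma 3.58.1 served as alternatives, beside other filters and scalings, a replicate block, fits of the compared groups alone and leaving out libraries. Each SE was taken as the absolute log2 difference divided by the square root of edgeR's quasi-likelihood F statistic. CPM are TMM-scaled, and floors cover counting error only. The edgeR step was tested on simulated data.

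The members and gene lists were chosen with earlier results of these data known. Named were all members, the other tested RT1 class I genes, 9 preset partner genes where tested, antigen presentation genes past 0.05, and the 5 genes most like the members in each of 2 correlations (at least 5 CPM on average). Replicate numbers did not pair the libraries. Promoter sequences are from RefSeq (GRCr8), in which 14821 of 17337 symbols matched.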

Additional observations from a re-analysis of the deposited data

How the results depend on the processing

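Across 21 alternatives for each strain or restraint contrast (20 for contrasts of all groups), 0 members were called for restraint or for the strain difference in its response. Under the same alternatives 48 of 66 single-gene log2 values kept their sign throughout. The members called between unstressed strains numbered 2 (0 without unstressed F344 replicates 2 and 3; 1 to 3 leaving out 1 library, RT1-CE14 being added), and after CRS 2 (1 to 2; without stressed WKY replicate 3 the 2 were RT1-S3 and RT1-CE4). These calls are no test of the members, which were chosen on the strain difference. The antigen presentation genes called between unstressed strains numbered 1 (1 to 2, Tapbp being added). All-gene calls between unstressed strains were 19, against 5 without unstressed F344 replicate 2 or without both replicates 2 and 3, 44 without F344 replicate 1, 10 without F344 replicate 3, 8 and 11 without unstressed WKY replicates 2 and 3, and 9 from the compared groups alone; after CRS they were 39, against 18, 18 and 20 without stressed F344 replicates 1, 2 and 3. Restraint calls over all genes were 0 in F344 (2 with limma-voom, 5 without a filter, 5 without unstressed F344 replicate 1), 0 in WKY (8 without a filter, 2 without unstressed WKY replicate 1) and 1 for the mean (2 with limma-voom or the replicate block, 3 with DESeq2, 6 without a filter, 0 to 5 leaving out 1 library), and 0 for the interaction (3 without a filter, 1 without both unstressed F344 replicates 2 and 3, 0 to 2 leaving out 1 library).

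Signs changed for 18 of the 66 values, among them some of over 0.5 in size (Psmb9 between unstressed strains and RT1-CE14 for restraint). Restraint in F344 gave RT1-CE4 0.11 and RT1-CE16 0.30 without a low count filter, and RT1-CE5 -0.0068 and RT1-CE14 -0.23 without both unstressed F344 replicates 2 and 3. The mean restraint value was 0.13 for RT1-CE5 without a filter and 0.37 for RT1-CE14 with limma-voom. B2m between unstressed strains was 0.0011 with DESeq2 size factors, 0.00093 with DESeq2, 0.24 without a filter, 0.00064 without the 3 most abundant features and 0.029 with limma-voom. Irf1 was 0.16 without a filter and 0.17 with limma-voom, Tap2 -0.10 with limma-voom, and Tap1 after CRS -0.045 without a filter. Leaving out 1 library gave restraint ranges in F344 of -0.50 to 0.13 for RT1-CE4, -0.086 to 0.36 for RT1-CE5 and -0.23 to 0.23 for RT1-CE16; in WKY of -0.030 to 0.18 for RT1-S3 and -0.45 to 0.15 for RT1-CE5; in the mean of -0.16 to 0.14 for RT1-CE5 and -0.67 to 0.82 for RT1-CE14; and -0.59 to 0.0043 for the RT1-CE5 interaction. Strain ranges without CRS were -0.34 to 0.29 for B2m, -0.18 to 0.34 for Tap2, -1.26 to 0.56 for Psmb9 and -0.29 to 0.36 for Irf1. After CRS they were -0.44 to 0.033 for RT1-CE14, -0.12 to 0.27 for Tap1, -0.13 to 0.39 for Irf1, -0.60 to 0.15 for Cd8a and -0.11 to 0.53 for RT1-CE10. The cause was not tested.

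The replicate numbers are shared by the labels only. Of 18 same-numbered pairs, 4 had a correlation of deviations over 0.1 (range -0.09 to 0.20), so the numbers were not taken as pairs. With the replicate block 25 of 2781 genes were called between unstressed strains, 3 of them members with RT1-CE14 added. Like the other strain calls, these are no test of the members. The RT1-CE16 restraint value in F344 was 0.011 with the replicate block.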
